A study of Homo sapiens with 91 samples.

Results

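The 37 genes of the human mitochondrial genome were followed in 91 RNA sequencing libraries of 3 cell lines. They were all genes whose symbol starts with MT-, namely 13 mRNAs, 2 rRNAs and 22 tRNAs of 62710 genes listed in each line's table, and no measured value entered that choice. They came from MOLT4, a line of acute lymphoblastic leukemia (35 libraries), from PSN1, derived from a pancreatic adenocarcinoma (32), and from RH4, derived from a rhabdomyosarcoma (24). The kinase CDK9 was targeted with KI-CDK9d-32, which degrades it, or with KB-0742, which inhibits it, and controls received the DMSO vehicle, with lysis after 2, 4 or 8 h. Among the 23 groups, MOLT4 vehicle at 4 h consisted of 3 libraries and every other group of 4, and the 2 h time was not sampled in RH4 or for KB-0742 in PSN1. The labels give no doses, so whether the compounds were used at matched doses cannot be told, and the study's design text names RH1 where every label says RH4. The labels call the libraries biological replicates and do not say whether each was a separate culture, so the p-values reflect only how far these libraries differ, which may be technical.

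The mitochondrial genome is a small circle inside the organelle, read by its own RNA polymerase, POLRMT, and not by the nuclear RNA polymerase II whose elongation CDK9 promotes. Both strands are transcribed as long precursors in which tRNAs lie between most mRNAs and rRNAs, and cutting out the tRNAs frees the other transcripts. The mRNAs encode subunits of respiratory complexes I, III and IV and of ATP synthase (complex V), and most of them carry poly(A) tails. The 2 rRNAs build the mitochondrial ribosome. Nuclear genes supply all other subunits, and also the proteins that transcribe, cut, stabilize and degrade mitochondrial RNA.

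The layout of the genes bears on how their counts can be read. In the GENCODE release 29 annotation (GRCh38), 12 mRNAs lie on the plus strand of chrM and MT-ND6 alone on the minus strand, with 8 of the tRNAs. MT-ATP8 and MT-ATP6 overlap by 46 bases, and MT-ND4L and MT-ND4 by 7, and in each pair the mature mRNA is shared. A read in the overlap can belong to either gene. The shared bases are shown in capitals, with 20 bases of sequence on either side, 5′ to 3′ on the plus strand, at chrM:8507-8592 for MT-ATP8 and MT-ATP6 and at chrM:10740-10786 for MT-ND4L and MT-ND4.
MT-ATP8 and MT-ATP6 overlap: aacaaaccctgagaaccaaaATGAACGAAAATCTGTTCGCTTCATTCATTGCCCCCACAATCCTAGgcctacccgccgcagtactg
MT-ND4L and MT-ND4 overlap: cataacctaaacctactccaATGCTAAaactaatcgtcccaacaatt

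The libraries were made by SMART-seq2, a protocol that primes cDNA on poly(A), so the ends of the mRNAs matter too. Of the 13 annotated mRNAs, 6 end in an incomplete codon (MT-ND1, MT-ND2, MT-CO3, MT-ND3, MT-ND4 and MT-CYB), and polyadenylation supplies the missing As of the stop codon. The last 24 bases of each annotated transcript are shown in the strand of the gene, with the last codon, complete or incomplete, in capitals, from chrM:4239-4262 (MT-ND1), chrM:5488-5511 (MT-ND2), chrM:9967-9990 (MT-CO3), chrM:10381-10404 (MT-ND3), chrM:12114-12137 (MT-ND4) and chrM:15864-15887 (MT-CYB). MT-ATP8 (chrM:8549-8572), MT-CO2 (chrM:8246-8269) and, from the minus strand, MT-ND6 (chrM:14149-14172) are shown as mRNAs with complete last codons whose values recur below.
MT-ND1: ctccagcattccccctcaaaccTA
MT-ND2: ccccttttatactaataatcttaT
MT-CO3: tctccatctattgatgagggtctT
MT-ND3: aaaaaggattagactgaaccgaaT
MT-ND4: acatcattaccgggttttcctctT
MT-CYB: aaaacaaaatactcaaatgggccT
MT-ATP8: cattcattgcccccacaatccTAG
MT-CO2: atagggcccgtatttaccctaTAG
MT-ND6: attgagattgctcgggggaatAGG

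Gene counts per library ranged from 1598283 to 3240753 in MOLT4, from 1998712 to 3227113 in PSN1 and from 1670111 to 3136769 in RH4. In every library the markers of its labelled line outranked those of the other lines, although LMO2 in MOLT4 and CDH1 in PSN1 averaged at most 1 CPM (the share of gene counts, scaled by the usual constant). Changes are given on 2 scales, both tested with edgeR's quasi-likelihood test with Benjamini-Hochberg adjustment over all genes, and "called" means an adjusted p under 0.05. The fits had no term for the replicate number unless stated. With that number as a block, several spike-in counts of called mRNAs were higher, as given at the end. Relative changes use TMM factors, which hold the bulk of the genes level. Spike-in changes are set by the ERCC and SIRV RNAs added in equal amount to every lysate, and they measure RNA per lysate, so fewer cells and less RNA per cell cannot be told apart. CPM carries no TMM factor. Where most nuclear transcripts fall, the CPM of a gene rises less, or falls more, than its relative change.

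In vehicle cells MT-RNR2, the large-subunit rRNA, had the highest measured level of the members in every line, at 33385 ± 2744 TPM (a scale that corrects for transcript length; SD, n = 11) in MOLT4, 55336 ± 9188 (n = 12) in PSN1 and 63805 ± 5086 (n = 8) in RH4. MT-RNR1, the small-subunit rRNA, stood at 3844 ± 307, 7572 ± 1310 and 9441 ± 849 TPM. How well priming on poly(A) captured each rRNA was not tested. MT-ND4L (complex I) and MT-CO2 (complex IV) led the mRNAs in every line, MT-ND1 came next, and MT-ATP8 (complex V) was the lowest.

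**Figure D1:**
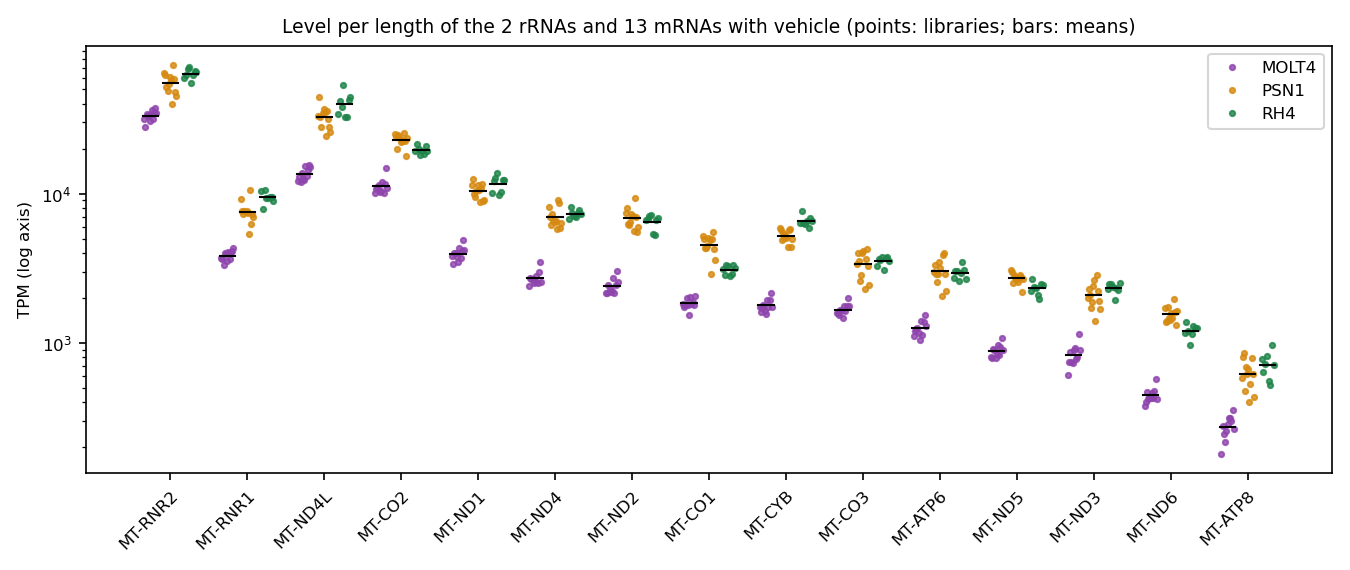
Level of each mitochondrial mRNA and rRNA in vehicle libraries of the 3 lines, in TPM on a log axis, with each library as a point. MT-RNR2 is the highest and MT-ATP8 the lowest in every line, and the MOLT4 libraries lie below those of PSN1 and RH4.

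The order of the mRNAs was similar in the 3 lines. In MOLT4, MT-ND4L stood at 13565 ± 1331 TPM and MT-CO2 at 11241 ± 1388, with ranges that overlapped (11922 to 15512 and 10038 to 14968). MT-ND1 followed at 3968 ± 411, MT-ND4 at 2722 ± 299 and MT-ND2 at 2403 ± 281. These 3 complex I mRNAs were neighbours in the order, and the ranges of neighbours among them overlapped. MT-CO1 (1841 ± 146), MT-CYB of complex III (1779 ± 174) and MT-CO3 (1671 ± 144) could not be ranked beyond their spread. MT-ATP6 stood at 1250 ± 146, MT-ND5 at 885 ± 85.8 and MT-ND3 at 832 ± 140. Neighbours among these 3 overlapped, and only MT-ND6 at 444 ± 51.4 and MT-ATP8 at 273 ± 49.0 lay below every library of the others. Genes that share an mRNA differed in level, since MT-ND4L exceeded MT-ND4 and MT-ATP6 exceeded MT-ATP8 in every line. How the counting divided reads between overlapping genes was not tested.

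MOLT4 held less mitochondrial mRNA than the other lines. In a fit over all 91 libraries, the mean of the vehicle groups at 4 and 8 h was lower in MOLT4 than in PSN1 for 13 of 13 mRNAs, with a median relative difference of -1.51, where 35.2% of 15881 genes were lower. The difference ran from -1.97 ± 0.13 (SE) for MT-ND6 to -1.16 ± 0.19 for MT-ATP8. Against RH4, MOLT4 was lower for 13 mRNAs as well (median -1.25, 32.4% of genes lower). With spike-in scaling the medians were -1.59 and -1.99, with 13 called lower each time, beside 31.1 and 46.6% of genes. PSN1 and RH4 were closer, and the scale decided the direction, since 8 mRNAs were higher in PSN1 on the relative scale (median 0.27, MT-CO1 highest at 0.88 ± 0.08, 31.3% of genes higher) while on the spike-in scale the median was -0.38 and MT-CYB, MT-ND4L and MT-ATP8 were lower, beside 40.7% of genes.

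In 8 h vehicle libraries of MOLT4, the 37 genes took 10.3, 11.9, 13.2 and 10.9% of gene counts. With KI-CDK9d-32 they took 26.3, 23.5, 23.5 and 22.9%, and with KB-0742 17.7, 17.7, 16.1 and 14.8%. The 3 groups did not overlap. The mean share rose with time of exposure to the degrader, from 12.6% at 2 h to 14.9% at 4 h, still below every 8 h library, while the vehicle means were 10.6, 11.1 and 11.6% at 2, 4 and 8 h and the KB-0742 means 13.7, 14.6 and 16.6%.

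In RH4 the order of the compounds was the opposite. The 8 h share ran from 19.2 to 21.8% in the 4 vehicle libraries and was 26.7, 25.8, 27.0 and 25.5% with KI-CDK9d-32 and 28.7, 28.6, 33.2 and 29.2% with KB-0742. Every KB-0742 library lay above every KI-CDK9d-32 library. In PSN1 the groups overlapped at 8 h, at 27.3, 22.7, 18.6 and 18.9% in vehicle, 25.6, 25.7, 24.9 and 29.2% with KI-CDK9d-32, and 26.2, 24.2, 27.6 and 29.8% with KB-0742. At 4 h in PSN1 they did not overlap vehicle, which ran from 18.3 to 22.7%, against 25.2 to 28.6% after the degrader and 24.6 to 27.8% after KB-0742.

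**Figure D2:**
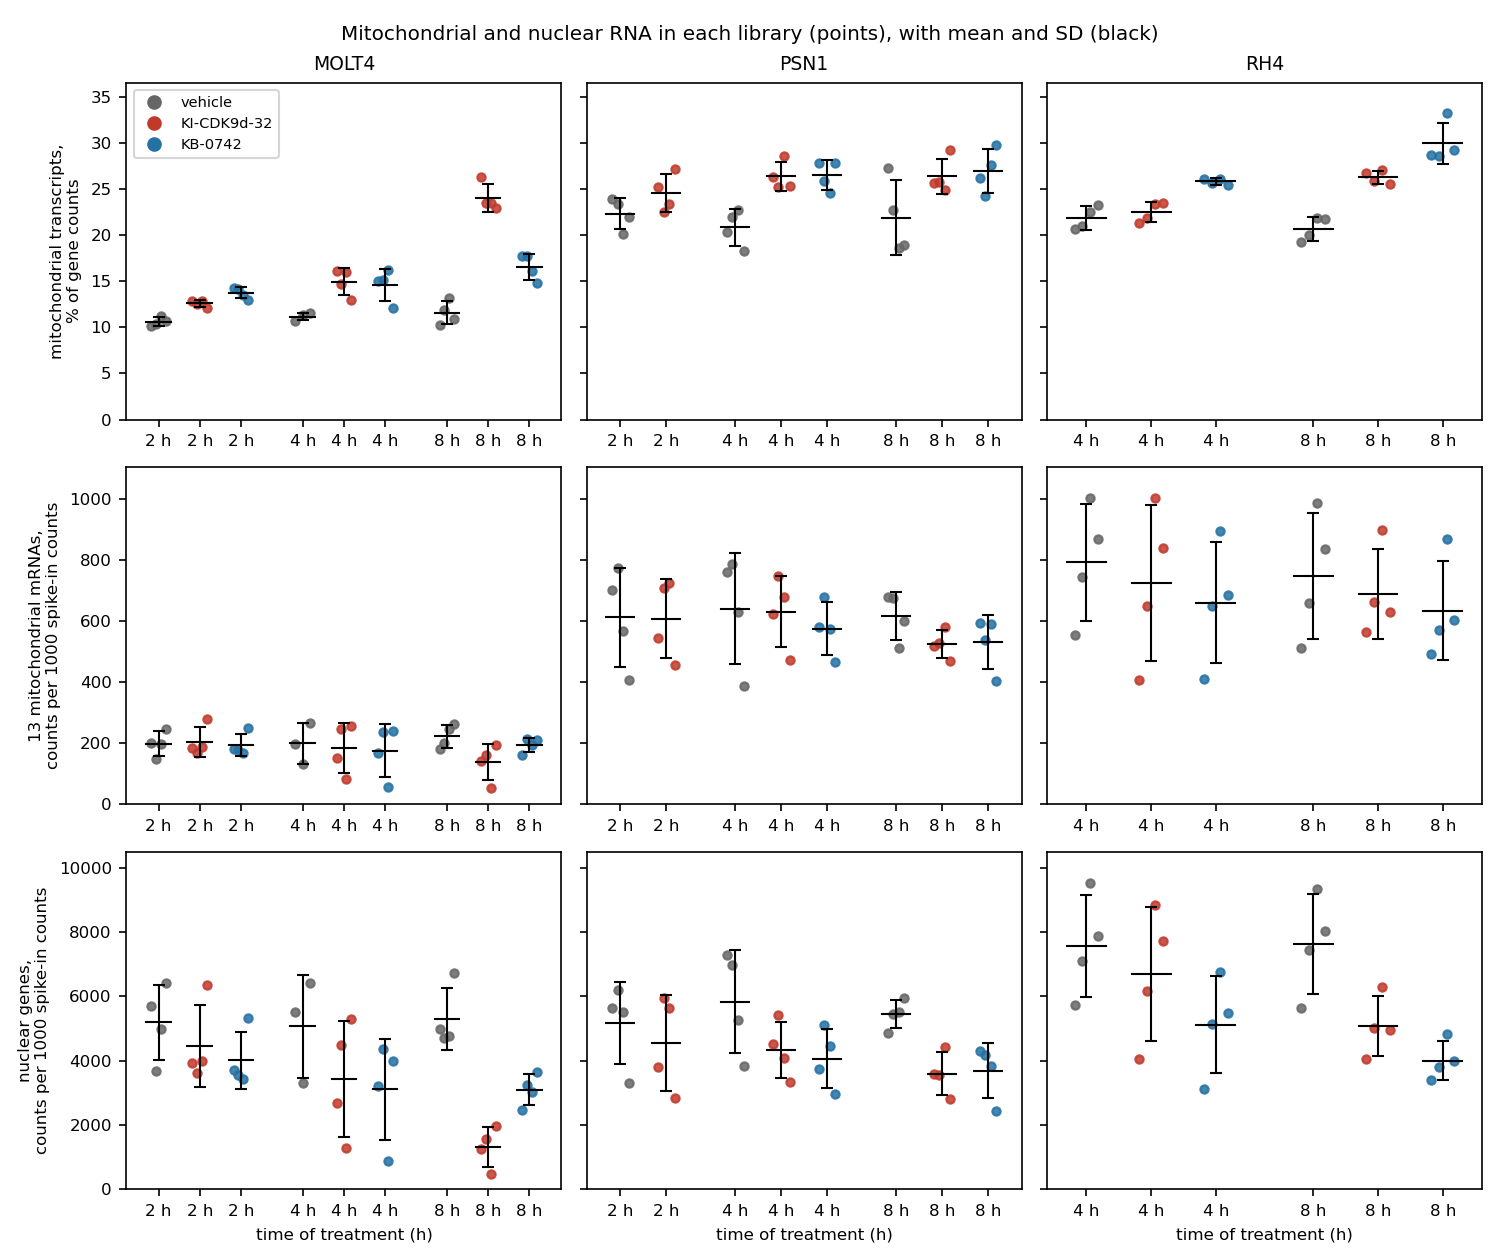
All mitochondrial transcripts as a percent of gene counts (upper row), and the 13 mitochondrial mRNAs (middle) and nuclear genes (lower) per 1000 spike-in counts, by line, time and compound, with each library as a point and the group mean and SD in black. At 8 h in MOLT4 the share lies between 10.3 and 13.2% in vehicle and between 22.9 and 26.3% with KI-CDK9d-32, while the mean mRNA amount per 1000 spike-in counts is 223 and 138 and the nuclear amount 5290 and 1312.

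Set against the spike-ins, the same mRNAs showed no gain. MOLT4 vehicle libraries at 8 h held 182, 200, 248 and 262 mitochondrial mRNA counts per 1000 spike-in counts, KI-CDK9d-32 libraries 141, 161, 55.1 and 195, and KB-0742 libraries 162, 215, 194 and 209. The groups overlapped, and replicate 3 of KI-CDK9d-32 was far below the others. Nuclear transcripts fell further over the same groups, with means of 5290 counts per 1000 spike-in counts in vehicle, 1312 after the degrader and 3092 after the inhibitor. In PSN1 the mitochondrial mRNA means at 8 h were 617 in vehicle, 524 and 531 with the compounds, against 5450, 3594 and 3679 for nuclear transcripts. In RH4 they were 748, 689 and 633, against 7619, 5076 and 3995. In each of the 3 lines both treated groups had fewer nuclear counts per spike-in count and a higher mean mitochondrial share than vehicle.

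With KI-CDK9d-32 in MOLT4, 12 of 13 mRNAs were called higher on the relative scale at 2 h (median 0.47; 4.57% of all genes were higher), 13 at 4 h (median 0.92; 13.6%) and 13 at 8 h (median 2.14; 20.8%), whereas on the spike-in scale the medians were 0.06, -0.10 and -0.68. No mRNA was called on the spike-in scale at 2 or 4 h (edgeR, 0 at an unadjusted p under 0.05), where 1.83 and 37.6% of all genes were called. The median over all genes was -0.02, -0.11 and -0.18 on the relative scale and -0.41, -1.13 and -2.99 on the spike-in scale. The mitochondrial mRNAs lay 0.49, 1.03 and 2.32 above the median of all genes on the relative scale, a distance that another scaling leaves nearly as it is by construction, since it moves every gene by about the same amount. With the total gene count as the only scaling, a choice added after the data were seen, the median of the 13 mRNAs was 0.26, 0.47 and 1.14 and that of all genes -0.23, -0.57 and -1.18.

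MT-ATP8, a small subunit of ATP synthase, had the highest relative change at each time, 0.78 ± 0.18, 1.07 ± 0.19 and 2.61 ± 0.18. Its CPM at 8 h was 34.0, 32.6, 39.8 and 27.5 in vehicle and 125, 111, 97.6 and 74.6 with KI-CDK9d-32. All treated libraries lay above all vehicle libraries. MT-ND3, a core subunit of complex I, had the lowest change at 8 h, 1.96 ± 0.13, with 202, 212, 310 and 226 CPM in vehicle and 480, 447, 499 and 420 with the degrader. These groups did not overlap either, as for all other mRNAs at 8 h. Overlap was not counted over all genes, of which 49.6% were called at 8 h on the relative scale. The lowest changes earlier were those of complex IV mRNAs, MT-CO1 at 2 h (0.37 ± 0.09) and MT-CO2 at 4 h (0.83 ± 0.13). MT-CO1 at 2 h stood at 3707, 3908, 3783 and 3992 CPM in vehicle and 4445, 4450, 4012 and 4252 with the degrader, which did not overlap. MT-ND4 was the mRNA not called at 2 h (0.41 ± 0.13, adjusted p = 0.0514, edgeR).

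In the fits without a replicate block, MT-ND3 was the only mRNA called with spike-in scaling against vehicle in any line, and it was lower (edgeR, with 2 mRNAs at an unadjusted p under 0.05). In MOLT4 at 8 h it stood at 1.12, 1.13, 1.70 and 1.70 per 1000 spike-in counts in vehicle and 0.815, 0.904, 0.313 and 1.07 with KI-CDK9d-32. All treated libraries lay below all vehicle libraries. The change was -0.87 ± 0.43 (95% interval -1.70 to -0.03, edgeR adjusted p = 0.0474), where 91% of all genes were lower. The call was lost without any single one of replicates 1, 2 and 3 of KI-CDK9d-32 and replicates 3 and 4 of vehicle, with changes of -1.06 to -0.60 over all libraries left out in turn. Without replicate 3 of KI-CDK9d-32 the median of the 13 mRNAs was -0.41 in place of -0.68, and on the relative scale 13 were called with a median of 2.17. That library and MOLT4 replicate 3 of both compounds at 4 h had the highest spike-in shares of their groups. At 4 h the spike-in median for the degrader was -0.10, and 0.17 without its replicate 3. The median for KB-0742 was -0.17, and 0.13 without its replicate 3. Vehicle replicate 3 at 4 h also had the highest spike-in share of its group, 21.2% against 14.0 and 12.1%. It was kept when the treated replicate 3 was left out, so the removal was unbalanced, and leaving out both was not tested.

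KB-0742 in MOLT4 gave 13 of 13 mRNAs called higher on the relative scale at each time, with medians of 0.80 at 2 h (13.2% of all genes were higher), 1.15 at 4 h (18.1%) and 1.13 at 8 h (23.4%), but spike-in medians of -0.01, -0.17 and -0.19. None was called on the spike-in scale by edgeR, at an unadjusted p under 0.05 either, where 19.7, 51.0 and 54.9% of all genes were called. MT-ATP8 again had the highest change, 1.03 ± 0.18, 1.24 ± 0.19 and 1.26 ± 0.18. The lowest were MT-ND4 at 2 h (0.73 ± 0.14), MT-CO1 at 4 h (1.02 ± 0.10) and MT-ND1 at 8 h (1.06 ± 0.08). MT-ND1, a complex I subunit at the quinone-binding site, stood at 4254, 4883, 5909 and 4674 CPM in vehicle at 8 h and at 6748, 6933, 6678 and 5967 with KB-0742, without overlap. Groups of MT-CO2, MT-ND4 and MT-ND6 did overlap in CPM at 8 h.

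The compounds were also compared directly in MOLT4. At 2 h, 8 of 13 mRNAs were lower with KI-CDK9d-32 than with KB-0742 on the relative scale (median -0.32; 10.1% of all genes were lower), and at 8 h 13 of 13 were higher (median 1.00; 28.9% were higher), from MT-ND3 (0.72 ± 0.13) to MT-ATP8 (1.35 ± 0.17). MT-ATP8 stood at 55.6, 54.8, 47.5 and 48.0 CPM with KB-0742 at 8 h, between vehicle and KI-CDK9d-32 and without overlap with either. On the spike-in scale the 8 h median was -0.47, the opposite direction. None was called there by edgeR at 2, 4 or 8 h, at an unadjusted p under 0.05 either, where 4.16, 14.1 and 57.1% of all genes were called. At 4 h, MT-CO2, MT-CYB, MT-ATP6 and MT-CO3 were lower with KI-CDK9d-32 (median of the 13 -0.18; 21.1% of all genes were lower). None was called without KB-0742 replicate 4 or without KI-CDK9d-32 replicate 4, 1 was called without KB-0742 replicate 3, and none at 2 or 4 h when scaled by total gene counts. The count of 8 at 2 h was 5 without KI-CDK9d-32 replicate 1 or 4 or KB-0742 replicate 2.

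**Figure D3:**
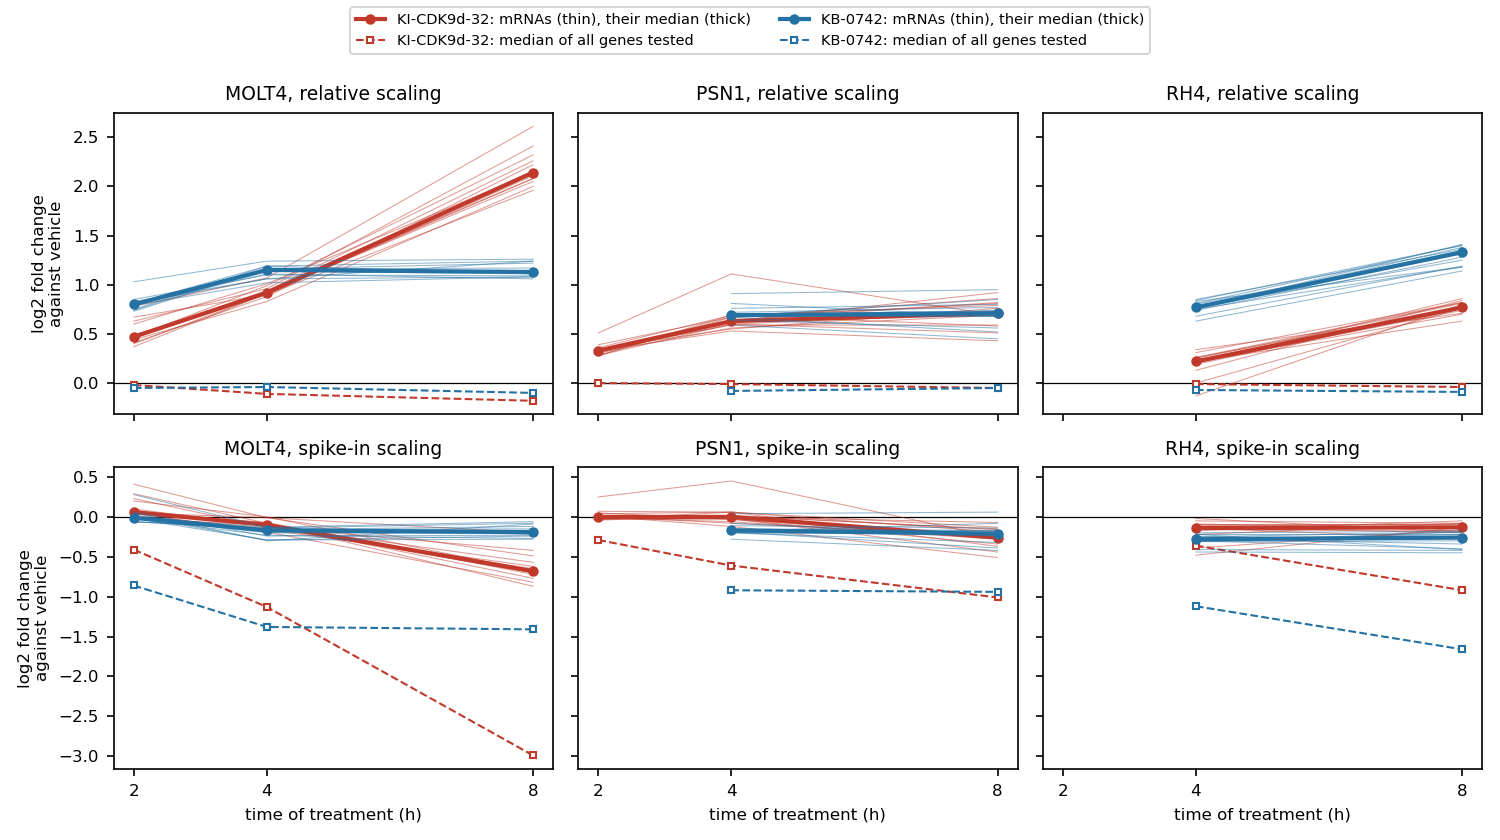
Log2 change against vehicle at 2, 4 and 8 h by line and compound, on the relative and the spike-in scale, with each of the 13 mitochondrial mRNAs as a thin line, their median as a thick line with points and the median of all genes tested as a dashed line. In MOLT4 with KI-CDK9d-32 the mRNA median reaches 2.14 on the relative scale at 8 h and -0.68 on the spike-in scale, where the median of all genes is -2.99.

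In PSN1 the relative changes were smaller, and the spike-in medians were at or below 0. With KI-CDK9d-32 no mRNA was called at 2 h (edgeR, 8 at an unadjusted p under 0.05; median 0.33; 0.481% of all genes called), 12 were higher at 4 h (median 0.63; 3.62% of all genes were higher) and 12 at 8 h (median 0.71; 11.0%), with spike-in medians of 0.00, 0.00 and -0.26. With KB-0742, 13 were higher at 4 h (median 0.69; 11.3%) and 13 at 8 h (median 0.71; 15.1%), with spike-in medians of -0.17 and -0.21. None was called on the spike-in scale by edgeR, at an unadjusted p under 0.05 either, where 0.120, 13.2 and 52.3% of all genes were called at 2, 4 and 8 h after the degrader and 42.8 and 48.0% with KB-0742 at 4 and 8 h. Scaled by total gene counts, 6 mRNAs were called with KI-CDK9d-32 at 4 h and 6 at 8 h, and 4 with KB-0742 at each time. The share of all genes called is not given for that scaling, so these counts have no background beside them.

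MT-ND5, a proton-pumping subunit of complex I, had the highest change with KI-CDK9d-32 at 8 h in PSN1, 0.92 ± 0.14. Its CPM was 7460, 6966, 5624 and 6885 in vehicle and 9241, 9212, 8166 and 10744 with the degrader. MT-ND5 and MT-ND4L were the only mRNAs whose groups did not overlap in CPM, and overlap was not counted over all genes. MT-ATP6, the proton channel subunit of ATP synthase, had the lowest change with both compounds at 8 h (0.43 ± 0.15 and 0.45 ± 0.15). Its CPM was 2790, 2896, 2149 and 1695 in vehicle, 2245, 2874, 2310 and 2086 with KI-CDK9d-32, and 2240, 2600, 2831 and 2070 with KB-0742. All 3 groups overlapped, and the change with KI-CDK9d-32 was -0.00 when scaled by total gene counts. Its call with KI-CDK9d-32 was lost without any single one of replicates 2, 3 and 4 of the compound and 3 and 4 of vehicle, and its call with KB-0742 without KB-0742 replicate 3 or vehicle replicate 3 or 4.

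MT-ATP8 was the most variable mRNA in PSN1. At 4 h it stood at 69.4, 63.9, 76.9 and 49.3 CPM in vehicle and 84.0, 100, 194 and 69.8 with KI-CDK9d-32, and replicate 3 was well above the others. Its change was 1.11 ± 0.30 at 4 h, the highest of the 13, and 0.69 ± 0.31 at 8 h, which was not called (adjusted p = 0.116, edgeR). The 4 h call was lost without replicate 3 of KI-CDK9d-32 (0.63) or without vehicle replicate 1, 2 or 4. The count of 12 mRNAs at 4 h was 7 without KI-CDK9d-32 replicate 3 or vehicle replicate 1 or 4. MT-CO3 was the mRNA not called at 4 h (0.59 ± 0.19, adjusted p = 0.0529, edgeR). Between the compounds, none of the 13 was called in PSN1 at 4 h (median -0.07; 17.4% of all genes called) or 8 h (median 0.02; 24.8%), and none at an unadjusted p under 0.05 (edgeR). None was called between them on the spike-in scale either (10.6 and 12.2% of all genes called). The 95% intervals at 8 h ran from -0.86 to 0.32 for MT-ATP8, the widest, and from -0.27 to 0.15 for MT-ND1, the narrowest, so differences of those sizes were not detectable.

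In RH4, KB-0742 gave the larger relative change. With KI-CDK9d-32, 2 mRNAs were called higher at 4 h (median of the 13 0.22; 8 at an unadjusted p under 0.05, edgeR; 3.47% of all genes were higher) and 13 at 8 h (median 0.77; 9.19%). With KB-0742, 13 were higher at 4 h (median 0.77; 15.4%) and 13 at 8 h (median 1.33; 22.5%). On the spike-in scale the medians were -0.14 and -0.13 with KI-CDK9d-32 and -0.28 and -0.26 with KB-0742, with none called by edgeR, at an unadjusted p under 0.05 either. Of all genes, 0.871 and 52.3% were called with KI-CDK9d-32 on that scale and 62.4 and 78.9% with KB-0742, at 4 and 8 h. With the replicate number as a block, most of the 13 were called with KB-0742 at both times, and the share of all genes called is not given for that fit. At 8 h the 13 mRNAs held 511, 660, 986 and 835 counts per 1000 spike-in counts in vehicle replicates 1 to 4. The same-numbered KB-0742 libraries held 493, 571, 867 and 602, each lower.

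MT-CYB, the mitochondrially encoded subunit of complex III, and MT-ND6 were the 2 called with KI-CDK9d-32 at 4 h in RH4 (0.31 ± 0.08 and 0.34 ± 0.10). MT-CYB stood at 8707, 9958, 8457 and 8484 CPM in vehicle and 9535, 9766, 9614 and 9405 with the degrader, so vehicle replicate 2 was the highest library and the groups overlapped. Scaled by total gene counts, none was called, and none without vehicle replicate 1. Only MT-CYB remained called without vehicle replicate 4 or any single KI-CDK9d-32 library. At 8 h the highest change was that of MT-ND2, another complex I core subunit (0.86 ± 0.10), with 6536, 6141, 7805 and 8146 CPM in vehicle and 9867, 9653, 10600 and 8962 with KI-CDK9d-32. The lowest was that of MT-ATP6 (0.63 ± 0.09), with 2001, 2262, 2045 and 1805 CPM in vehicle and 2410, 2327, 2377 and 2288 with the degrader. Neither gene's groups overlapped.

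With KB-0742 at 8 h in RH4, MT-ND4L had the highest change (1.41 ± 0.14). It stood at 6136, 5784, 7772 and 8343 CPM in vehicle and 9500, 10164, 11282 and 10755 with KB-0742, without overlap. MT-ND3 had the lowest (1.14 ± 0.13), with 468, 530, 530 and 603 CPM in vehicle and 713, 601, 772 and 540 with KB-0742, which overlapped. KI-CDK9d-32 gave lower relative values than KB-0742 for 13 mRNAs at 4 h (median -0.57; 12.4% of all genes were lower) and 12 at 8 h (median -0.55; 19.3%), but the 8 h median on the spike-in scale was 0.13. None was called on that scale at 4 or 8 h by edgeR, at an unadjusted p under 0.05 either, where 35.5 and 39.6% of all genes were called. Scaled by total gene counts, 3 of the 12 were called, and the share of all genes is not given for that scaling. MT-ATP8 was the mRNA not called at 8 h (-0.39 ± 0.20, adjusted p = 0.117, edgeR).

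**Figure D4:**
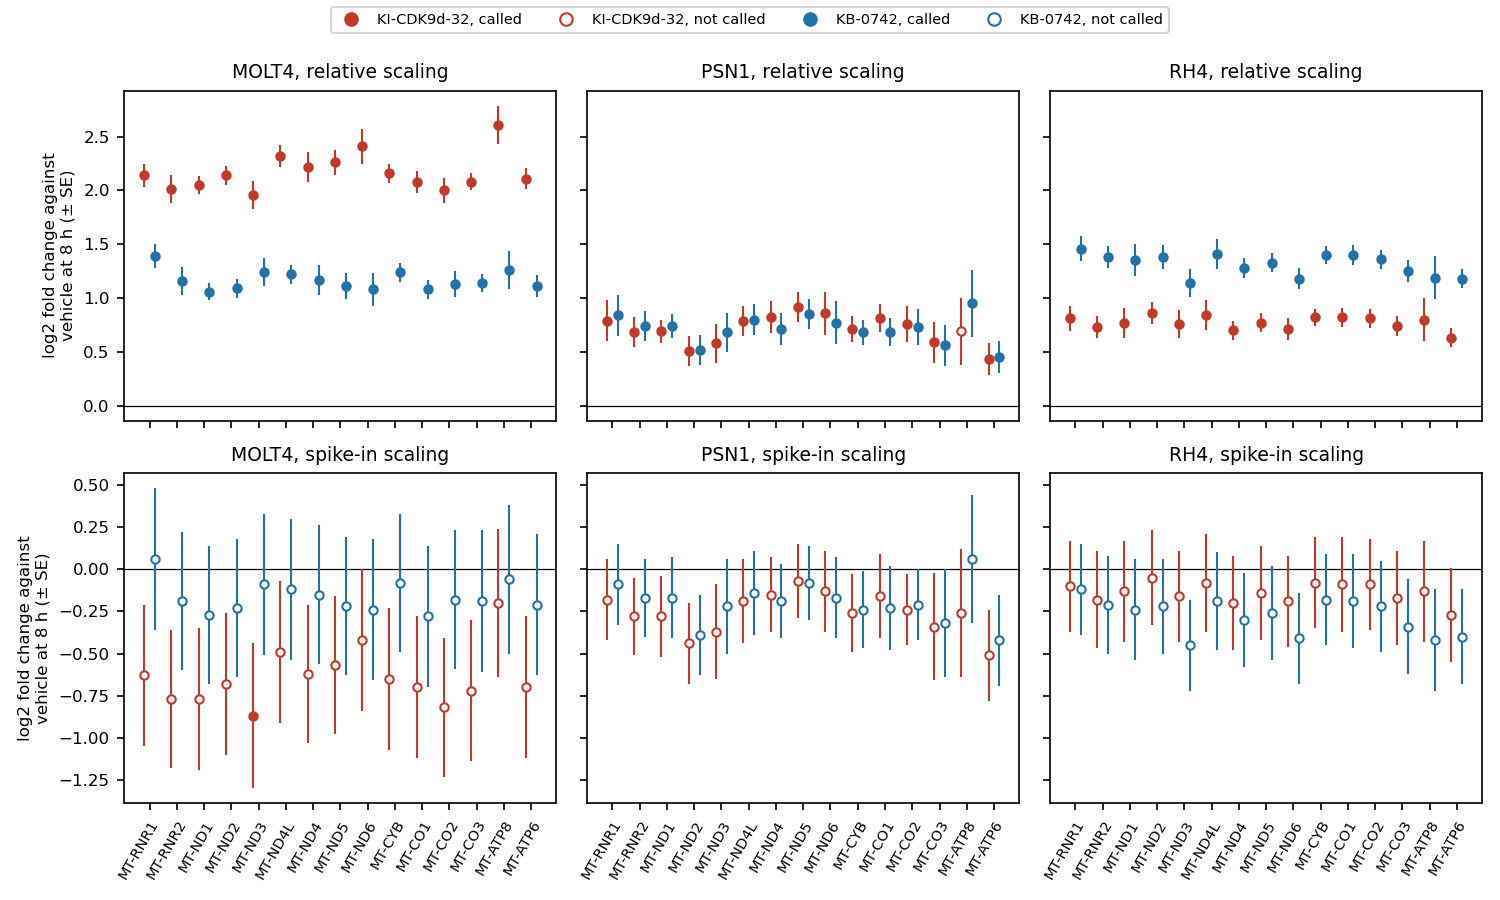
Log2 change against vehicle at 8 h of each mitochondrial mRNA and rRNA, with bars for the standard error, by line and compound on the relative and the spike-in scale, filled where called and open where not. On the relative scale all values lie above 0, from 0.43 (MT-ATP6, PSN1, KI-CDK9d-32) to 2.61 (MT-ATP8, MOLT4, KI-CDK9d-32), while on the spike-in scale most lie below 0 and the filled point is MT-ND3 in MOLT4 with KI-CDK9d-32.

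The change of the effect with time was tested as an interaction on the relative scale. In MOLT4, the effect of KI-CDK9d-32 was larger at 8 h than at 4 h for 13 of 13 mRNAs (median 1.20; 5.15% of all genes had a larger effect), from MT-ND3 (1.06 ± 0.19) to MT-ATP8 (1.54 ± 0.26), and larger at 4 h than at 2 h for MT-ND1, MT-CO3, MT-CYB, MT-ND4L and MT-CO1 (median of the 13 0.46; 1.22%). The latter count was 0 without vehicle replicate 3 at 4 h, 1 without vehicle replicate 1 at 4 h and 3 without KI-CDK9d-32 replicate 1 at 4 h. In RH4 the effect of KB-0742 grew from 4 to 8 h for 9 mRNAs (median of the 13 0.52; 4.40%). For KI-CDK9d-32 in RH4 none was called by edgeR, while 13 had an unadjusted p under 0.05 (median 0.56; 0% of all genes called) and DESeq2 called 11. In MOLT4 with KB-0742, edgeR called none from 2 to 4 h (8 at an unadjusted p under 0.05, 1 by DESeq2; 3.15%) and none from 4 to 8 h (0 at an unadjusted p under 0.05; 17.8%). In PSN1 edgeR called none with KI-CDK9d-32 from 2 to 4 h or from 4 to 8 h (0.0160% of all genes each time; 2 and 0 mRNAs at an unadjusted p under 0.05) and none with KB-0742 from 4 to 8 h (1.88%; 0). On the spike-in scale none was called in any line, at an unadjusted p under 0.05 either, where the share of all genes called was at most 2.53% except for the MOLT4 effect of KI-CDK9d-32 from 4 to 8 h, at 45.5%.

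Effects also differed between lines on the relative scale. At 8 h the effect of KI-CDK9d-32 was larger in MOLT4 than in PSN1 for 13 mRNAs (median 1.52; 7.35% of all genes had a larger effect), from MT-CO2 (1.32 ± 0.19) to MT-ATP8 (2.00 ± 0.34), and larger than in RH4 for 13 (median 1.40; 6.50%). At 4 h it was larger in MOLT4 than in RH4 for 12 (median 0.78; 1.86%). The effect of KB-0742 at 8 h was larger in MOLT4 than in PSN1 for MT-CYB, MT-ND2 and MT-ATP6 (4.36%), and smaller in PSN1 than in RH4 for MT-CYB, MT-ND2, MT-CO1, MT-ND1, MT-ATP6 and MT-CO3 (3.46%). MOLT4 and RH4 did not differ by a called amount for KB-0742 at 8 h (median -0.17; 2 at an unadjusted p under 0.05, edgeR; 9.36%). With KI-CDK9d-32, edgeR called no mRNA in MOLT4 against PSN1 at 4 h (8 at an unadjusted p under 0.05, 3 by DESeq2; 6.42% of all genes called) or in PSN1 against RH4 at 4 h (8 and 1; 0.0756%) or 8 h (1 at an unadjusted p under 0.05; 0.573%). With KB-0742 at 4 h it called none in MOLT4 against PSN1 (7 at an unadjusted p under 0.05, 2 by DESeq2; 5.44%), MOLT4 against RH4 (0; 2.49%) or PSN1 against RH4 (0; 1.38%). On the spike-in scale edgeR called none of these differences between lines, at an unadjusted p under 0.05 either, where 49.7 and 53.9% of all genes were called for KI-CDK9d-32 at 8 h in MOLT4 against PSN1 and RH4 and at most 4.22% in the other comparisons of lines.

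MT-ND6, the mRNA of the minus strand, stood at 214, 240, 300 and 203 CPM in MOLT4 vehicle at 8 h, at 710, 593, 693 and 535 with KI-CDK9d-32, and at 351, 319, 339 and 290 with KB-0742. The degrader libraries lay above all others, and 1 vehicle library lay within the range of KB-0742. Its relative change with KI-CDK9d-32 was 0.63 ± 0.15, 0.96 ± 0.17 and 2.41 ± 0.16 at 2, 4 and 8 h in MOLT4, 0.86 ± 0.20 at 8 h in PSN1 and 0.71 ± 0.10 at 8 h in RH4. With KB-0742 the 8 h values were 1.08 ± 0.15, 0.77 ± 0.20 and 1.18 ± 0.10, so MT-ND6 moved in the same direction as the plus-strand mRNAs. As a share of the 13 mRNAs, which no scaling affects, it made up 0.653, 0.639, 0.663 and 0.586% in MOLT4 vehicle at 8 h and 0.855, 0.747, 0.788 and 0.701% with KI-CDK9d-32, without overlap. With KB-0742 the mean share was 0.615%, and the groups overlapped. In RH4 at 8 h the share was 0.720, 0.805, 0.691 and 0.708% in vehicle and 0.682, 0.662, 0.664 and 0.582% with KB-0742. There every treated library lay below every vehicle library, the opposite of the degrader in MOLT4. Of the 15 comparisons with vehicle, the only other one without overlap was that of KI-CDK9d-32 in MOLT4 at 2 h, with a mean share of 0.695% against 0.614%. These libraries did not record strand, so MT-ND6 reads cannot be told apart from transcripts of the opposite strand across the same bases. How well priming on poly(A) captured MT-ND6 was not tested.

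The 2 rRNAs moved with the mRNAs. MT-RNR2 in MOLT4 at 8 h stood at 66470, 76342, 82274 and 69949 CPM in vehicle, 168118, 145839, 137894 and 141863 with KI-CDK9d-32, and 115526, 113830, 99289 and 91572 with KB-0742, and the 3 groups did not overlap. MT-RNR1 stood at 4184, 4765, 5009 and 4809 CPM in vehicle, 11631, 9645, 8774 and 10948 with KI-CDK9d-32, and 8049, 8393, 7178 and 7925 with KB-0742, again apart. On the relative scale both rRNAs were called higher at all 3 times in MOLT4 with both compounds, reaching 2.01 ± 0.13 (MT-RNR2) and 2.14 ± 0.11 (MT-RNR1) with KI-CDK9d-32 at 8 h, while the spike-in values were -0.77 and -0.63 and not called. In PSN1 the 8 h values with KI-CDK9d-32 were 0.68 ± 0.14 and 0.79 ± 0.19, and in RH4 0.73 ± 0.10 and 0.81 ± 0.12. With KB-0742 in RH4 they were 1.38 ± 0.10 and 1.46 ± 0.12. At 8 h the rRNA groups overlapped vehicle in CPM in PSN1 with either compound, and did not in RH4.

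The ratio of rRNA to mRNA counts differed more between lines than between treatments. In vehicle at 8 h it averaged 2.10 ± 0.112 (SD, n = 4) in MOLT4, 1.46 ± 0.168 in PSN1 and 1.69 ± 0.0888 in RH4. With KI-CDK9d-32 it was 1.95 ± 0.207, 1.43 ± 0.0955 and 1.63 ± 0.0440, and with KB-0742 2.14 ± 0.157, 1.52 ± 0.0582 and 1.73 ± 0.0524. Treated and vehicle ranges overlapped in every line.

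Of the 22 tRNAs, 3 passed the filter on low counts in at least 1 line, MT-TQ (glutamine) in all lines, MT-TM (methionine) in MOLT4 and MT-TL1 (leucine) in RH4, and the other tRNAs are too sparse to compare. MT-TQ and MT-TM lie side by side on opposite strands, at chrM:4329-4400 (minus) and chrM:4402-4469 (plus), and their whole annotated sequences are short, which together with the lack of a poly(A) tail on mature tRNAs limits what these libraries can hold of them.
MT-TQ: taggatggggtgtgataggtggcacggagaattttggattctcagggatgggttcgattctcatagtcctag
MT-TM: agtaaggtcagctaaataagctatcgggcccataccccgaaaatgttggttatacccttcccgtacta

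MT-TQ had 21, 14, 30 and 17 counts in MOLT4 vehicle at 8 h, 78, 41, 42 and 60 with KI-CDK9d-32, and 46, 33, 37 and 38 with KB-0742. MT-TM had 6, 2, 3 and 4 counts in vehicle and 13, 10, 12 and 14 with KI-CDK9d-32. In CPM, every KI-CDK9d-32 library lay above every vehicle library for both tRNAs, while the KB-0742 and vehicle groups overlapped. The relative changes with KI-CDK9d-32 were 2.52 ± 0.29 and 2.80 ± 0.57, near those of the mRNAs. Both were called, where 20.8% of all genes were higher. With KB-0742 the changes were 1.41 ± 0.30 and 1.44 ± 0.58, both called as well, where 23.4% of all genes were higher. Within PSN1 MT-TQ was called in no comparison of the compounds with vehicle or with each other, and replicate 3 of KI-CDK9d-32 at 4 h held 102 counts. Within RH4 MT-TQ (0.95 ± 0.36) and MT-TL1 (1.52 ± 0.57) were called only with KB-0742 against vehicle at 8 h, where 22.5% of all genes were higher. Between vehicle groups MT-TQ was higher in MOLT4 than in PSN1 on the relative scale (0.94 ± 0.36, 26.2% of all genes higher), unlike the mRNAs. That difference was not called by spike-ins. MT-TQ was lower in PSN1 than in RH4 (-1.78 ± 0.34, 28.3% of all genes lower).

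Nuclear copies of mitochondrial genes can take or give reads. Of 404 such pseudogenes listed, those with a mean of at least 10 counts numbered 6, 7 and 5 in MOLT4, PSN1 and RH4. The counts of all 404 together came to 0.678, 0.601 and 0.223% of the members' counts. MTND1P23 averaged 1097 counts in MOLT4 against 12.9 in PSN1 and 12.3 in RH4. MTND2P28 averaged 345, 2849 and 726 counts and MTATP6P1 477, 679 and 614, so the leading copy differed between the lines. How reads were split between these copies and MT-ND1, MT-ND2 or MT-ATP6 was not tested.

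The nuclear genes that run mitochondrial gene expression were described as a list of 38, of which 36, 37 and 37 were tested in MOLT4, PSN1 and RH4. At 8 h in MOLT4, KI-CDK9d-32 left 3 of them higher and 18 lower (8.33 and 50%, beside 20.8 and 28.7% of all genes; median -0.75 against -0.18). KB-0742 left 14 higher and 8 lower (38.9 and 22.2%, beside 23.4 and 25.8% of all genes; median 0.33). That last balance turned with the scale, to 5 higher and 17 lower (median -0.30) by total gene counts and to none higher and 17 lower (median -0.99) by spike-ins. In PSN1 KI-CDK9d-32 left 2 higher and 8 lower (5.41 and 21.6%, beside 11.0 and 9.61% of all genes) and KB-0742 9 higher and 8 lower (24.3 and 21.6%, beside 15.1% of all genes in each direction). In RH4 the shares were near those of all genes, at 3 higher and 2 lower with KI-CDK9d-32 (8.11 and 5.41%, beside 9.19 and 6.05%) and 9 higher and 10 lower with KB-0742 (24.3 and 27.0%, beside 22.5 and 22.9%). With spike-in scaling none was higher in any of these comparisons. The lower genes then made up 100 and 47.2% of the list in MOLT4 with KI-CDK9d-32 and KB-0742 (91 and 54.3% of all genes), 83.8 and 56.8% in PSN1 (51.2 and 46.8%), and 67.6 and 81.1% in RH4 (51.6 and 77.9%). By total gene counts the lower genes outnumbered the higher in all of them as well. The share of all genes called by total gene counts is not given here.

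SLIRP, which binds and stabilizes mitochondrial mRNAs, had the largest fall of the list with KI-CDK9d-32 in MOLT4 among its well-counted genes, -2.73 ± 0.20 at 8 h, from 228 ± 19.7 to 17.2 ± 3.28 CPM (SD, n = 4), and it fell with KB-0742 too (-1.63 ± 0.18). POLRMT, the mitochondrial RNA polymerase, fell by 1.22 ± 0.23 with KI-CDK9d-32, from 50.1 ± 9.74 to 10.8 ± 2.47 CPM, and its spike-in change was -4.10. POLRMT with KB-0742 was at -0.13 ± 0.20 and not called on the relative scale, while its spike-in change of -1.44 was called. TFAM, which binds the promoters and packs the DNA, was not called on the relative scale with KI-CDK9d-32 (-0.08 ± 0.26, adjusted p = 0.827, edgeR) but was lower by spike-ins (-2.97 ± 0.51), with 10.7 CPM against 22.4 in vehicle. It rose on the relative scale with KB-0742 (0.85 ± 0.23, adjusted p = 0.00204, edgeR), where the spike-in value was -0.48. FASTKD3, a mitochondrial RNA-binding protein, was at -2.48 ± 0.57 with KI-CDK9d-32 and at 1.72 ± 0.38 with KB-0742. SUPV3L1, the helicase of mitochondrial RNA decay, fell by 1.87 ± 0.27 with KI-CDK9d-32.

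KB-0742 changed other members of the list. FASTK, which is needed for MT-ND6 mRNA, fell to 5.41 CPM from 71.8 in MOLT4 (-3.09 ± 0.23) and fell in RH4 (-2.06 ± 0.21). MT-ND6 in the same comparisons was at 1.08 ± 0.15 and 1.18 ± 0.10 on the relative scale, and its share of the 13 mRNAs overlapped that of vehicle in MOLT4 and lay below it in RH4. TRMT10C, a subunit of the RNase P that frees tRNAs at their 5′ ends, rose on the relative scale in MOLT4 (2.06 ± 0.21, from 26.8 to 71.2 CPM) and RH4 (1.50 ± 0.19), where the spike-in values were 0.71 and -0.08 and not called. TFB1M, an rRNA methyltransferase, was lower in all 3 lines with KB-0742 (-1.72 in MOLT4, -2.58 ± 0.45 in PSN1 and -1.69 in RH4). MTPAP, the mitochondrial poly(A) polymerase, in PSN1 was at -0.81 ± 0.23 after the degrader and at 1.27 ± 0.21 after KB-0742, both called on the relative scale, with spike-in values of -1.78 and 0.39. POLRMT in PSN1 was not called on the relative scale and was lower by spike-ins with KI-CDK9d-32 (-1.33) and KB-0742 (-1.65). In RH4 it was lower with KB-0742 (-0.82 ± 0.26, adjusted p = 0.0111, edgeR) and at 0.56 ± 0.23 with KI-CDK9d-32 (adjusted p = 0.0939).

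The nuclear-encoded partners of the 13 mRNAs, a list of 72 respiratory chain and ATP synthase subunits, had more members called higher than lower on the relative scale at 8 h, and more lower than higher on the other scales. With KI-CDK9d-32 in MOLT4, 51 were higher and 11 lower (70.8 and 15.3%, beside 20.8 and 28.7% of all genes; median 0.75), against 11 higher and 35 lower by total gene counts (median -0.25) and 72 lower by spike-ins (median -2.07). With KB-0742 in MOLT4 the counts were 40 higher and 11 lower (55.6 and 15.3%, beside 23.4 and 25.8% of all genes; median 0.34), against 11 higher and 41 lower by total gene counts and 36 lower by spike-ins. In MOLT4 with KI-CDK9d-32 the list median lay above that of all genes, given earlier, on each of these scales. The share of all genes called by total gene counts is not given here. In PSN1 44 and 30 were higher with KI-CDK9d-32 and KB-0742 (61.1 and 41.7%, beside 11.0 and 15.1% of all genes) and none lower. In RH4 37 and 50 were higher (51.4 and 69.4%, beside 9.19 and 22.5%) and 2 and 5 lower. By spike-ins none was higher in any line. The lower genes were then 100 and 50% of the list in MOLT4 (91 and 54.3% of all genes), 26.4 and 44.4% in PSN1, fewer than the 51.2 and 46.8% of all genes, and 38.9 and 88.9% in RH4 (51.6 and 77.9%).

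**Figure D5:**
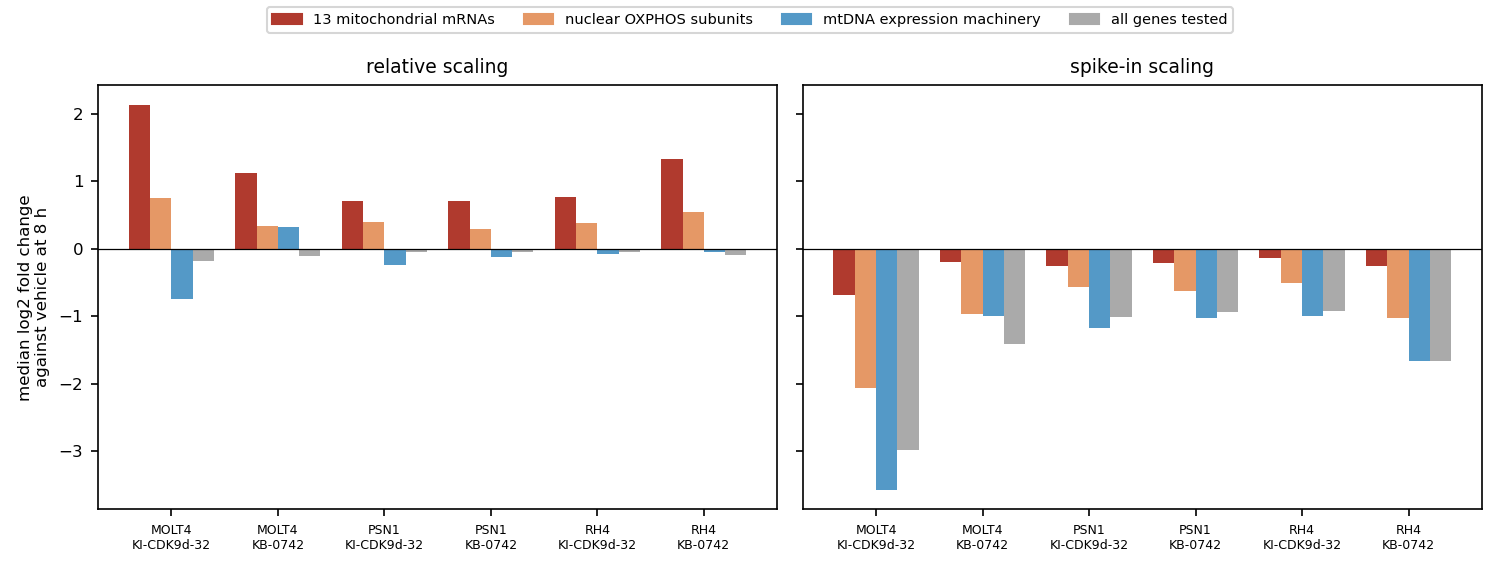
Bars of the median log2 change against vehicle at 8 h of the 13 mitochondrial mRNAs, the nuclear respiratory chain subunits, the machinery genes and all genes tested, by line and compound on the relative and the spike-in scale. In MOLT4 with KI-CDK9d-32 the first 3 medians are 2.14, 0.75 and -0.75 on the relative scale and -0.68, -2.07 and -3.58 on the spike-in scale.

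With the degrader in MOLT4 the median of the mitochondrial mRNAs exceeded that of the nuclear subunits. A change of scale leaves such distances between genes nearly as they are by construction, so the spike-in scale is no separate support. ATP5F1E, the epsilon subunit of ATP synthase, led the nuclear list on the relative scale (1.52 ± 0.09, 896 against 624 CPM, spike-in value -1.34), below the lowest of the 13 mRNAs, MT-ND3, on both scales. COX6C (1.50 ± 0.10) and COX8A (1.46 ± 0.08), small subunits of complex IV, came next, with spike-in values of -1.37 and -1.35. NDUFV2, a catalytic subunit of complex I, was at -1.63 ± 0.16, and it was lower with KI-CDK9d-32 in RH4 (-0.62) and with KB-0742 in MOLT4 (-0.93) and RH4 (-1.48). CYC1, a cytochrome of complex III, was the lowest of the list with KB-0742 in MOLT4 (-1.29 ± 0.12). In RH4 NDUFS5, an accessory subunit of complex I, was the highest with KB-0742 on the relative scale (1.22, spike-in value -0.37).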

How the data were processed

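Per the labels' protocols, SMART-seq2 and Nextera XT libraries were made from 1 ng of total RNA, and no strand or unique molecule was marked. Per the submitters' processing notes, Salmon and the hg38 build were used. Neither the version of Salmon nor its annotation is given in the sources used here. The deposited tables hold expected counts per gene, which the authors made with Salmon and which are whole numbers here, and log2 values of TPM plus 1, from which TPM was recovered. Each of the 62710 genes was matched by identifier, after leaving out 47 entries of the pseudoautosomal Y regions, and the 92 ERCC and 7 SIRV rows gave the spike-in counts. Every column was matched to 1 sample.

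Counts were tested in R 4.3.3 with edgeR 4.0.16 (robust quasi-likelihood F tests, 2-sided, 1 fit per line, genes kept by filterByExpr at a minimum count of 10, giving 11664, 12471 and 12058 genes), scaled by TMM and, separately, by summed spike-in counts. Line differences came from 1 fit of all 91 libraries. Adjustment was over all genes of a comparison. DESeq2 1.42.0, other size factors, total gene counts, no filter, the replicate number as a block and leaving out each library were alternatives. Scripts were tested on simulated data. Since PCR copies were not removed, reads are not independent molecules.

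The members and lists were chosen with earlier results of these data known. All 13 mRNAs, both rRNAs and each tRNA that passed the filter are named. Values are given in full for the mRNAs with the highest and lowest change per comparison, for MT-ND6 and for the rRNAs. Of each list, up to 3 called genes with the largest change in each direction per compound at 8 h were eligible (mean log2 CPM of at least 3, no overlap between groups), with POLRMT and TFAM always, and not all of them are described. Sequences were read from GENCODE release 29 transcripts (GRCh38).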

Additional observations from a re-analysis of the deposited data

Results flagged for a closer look

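In 7 of 88 combinations of group and class measure, 1 library stood apart from the other libraries of its group by Dixon's criterion at 95%, and chance alone gives about 1 in 20. In MOLT4 vehicle at 8 h, replicate 3 had an rRNA to mRNA ratio of 1.93 against 2.16 in each of the other libraries. In MOLT4 with KI-CDK9d-32, mitochondrial mRNA took 3.84% of gene counts in replicate 4 at 2 h against 4.09 to 4.12%, and at 4 h MT-ND6 made up 0.447% of the mRNAs in replicate 4 against 0.709 to 0.745%. With KB-0742 in MOLT4, rRNA took 6.84% in replicate 4 at 4 h against 10.5 to 10.8%, and mRNA 4.89% in replicate 4 at 8 h against 5.38 to 5.45%. In PSN1, mRNA took 8.21% in vehicle replicate 3 at 2 h against 9.46 to 9.57%, and rRNA 17.4% in replicate 4 with KI-CDK9d-32 at 8 h against 14.6 to 15.0%.

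Effects that differed by a test of the difference itself, on the relative scale, were the change of the KI-CDK9d-32 effect in MOLT4 from 2 to 4 h (5 mRNAs) and from 4 to 8 h (13 mRNAs), and of the KB-0742 effect in RH4 from 4 to 8 h (9 mRNAs). Between lines, the effect of KI-CDK9d-32 in MOLT4 exceeded that in RH4 at 4 h for 12 mRNAs, and at 8 h it exceeded those in PSN1 and RH4 for 13 mRNAs each. The effect of KB-0742 at 8 h was larger in MOLT4 than in PSN1 for 3 mRNAs and smaller in PSN1 than in RH4 for 6 mRNAs. None of these differences was called by edgeR on the spike-in scale.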

How the results depend on the processing

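Counts of mRNAs are those called of 13, and the shares of all genes called under these alternatives are not given beside them. Scaling by total gene counts, which was chosen after seeing the data, gave 0 for KI-CDK9d-32 against KB-0742 in MOLT4 at 2 and 4 h (8 and 4 as reported), 0 for the MOLT4 KI-CDK9d-32 change from 2 to 4 h, 6 and 6 for KI-CDK9d-32 in PSN1 at 4 and 8 h, 4 and 4 for KB-0742 there, 0 for KI-CDK9d-32 in RH4 at 4 h, 3 for the compounds in RH4 at 8 h, 1 and 4 for the changes from 4 to 8 h in RH4, 5 for MOLT4 less RH4 with KI-CDK9d-32 at 4 h and 2 for PSN1 less RH4 with KB-0742 at 8 h. MT-ATP6 in PSN1 with KI-CDK9d-32 at 8 h was at -0.00. RLE factors gave 5 and 0 for the compounds in MOLT4 at 2 and 4 h and 2 for MOLT4 less PSN1 with KB-0742 at 4 h. TMM over nuclear genes gave 2 for the compounds in MOLT4 at 4 h. DESeq2 gave 5 and 1 for the compounds in MOLT4 at 2 and 4 h, 1 for the KB-0742 change there from 2 to 4 h, 11 for the KI-CDK9d-32 change in RH4, 3 and 1 for MOLT4 less PSN1 and PSN1 less RH4 with KI-CDK9d-32 at 4 h, 2 for MOLT4 less PSN1 with KB-0742 at 4 h and 10 for PSN1 less RH4 at 8 h. Without a filter the counts were 0 for the compounds in MOLT4 at 4 h, 0 for KI-CDK9d-32 in MOLT4 at 8 h by spike-ins, 5 for KI-CDK9d-32 in RH4 at 4 h and 9 for its change to 8 h. A median ratio over spike-ins gave 0 in MOLT4 with KI-CDK9d-32 at 8 h, and ERCC counts alone changed no count.

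The replicate numbers are shared by groups. On the relative scale they did not meet the criterion for pairing, which was every pair above 0.1. The correlations of same-numbered libraries ran from -0.0191 to 0.169, no comparison of 22 met it, and 64 of 86 pairs matched their own number best. Spike-in values were not checked in this way. In RH4 at 4 h, replicates 1 to 4 of vehicle held 554, 744, 1003 and 869 mitochondrial mRNA counts per 1000 spike-in counts. The values were 407, 650, 1002 and 840 with KI-CDK9d-32 and 409, 650, 893 and 686 with KB-0742. In every RH4 group replicate 1 had the highest spike-in share of counts and replicate 3 the lowest. At 8 h these shares were 12.6 and 7.71% in vehicle and 17.4 and 12.1% with KB-0742. In MOLT4 replicate 4 had the lowest share in every group except KB-0742 at 4 h. Fits without the block take no account of such shared levels. Whether same-numbered lysates shared a spike-in effect was not tested. With the replicate block, the relative counts were 1 for the KB-0742 change from 2 to 4 h in MOLT4, 9 for KI-CDK9d-32 in RH4 at 4 h and 9 for its change to 8 h. By spike-ins with the replicate block they were 10 for KI-CDK9d-32 and 2 for the compounds in MOLT4 at 8 h, 3 and 3 for the compounds against vehicle in PSN1 at 8 h, 1 and 1 for KI-CDK9d-32 in RH4 at 4 and 8 h, 11 and 8 for KB-0742 there, and 1 for the compounds in RH4 at 8 h. The other counts stayed within 1.5 times. Single values by spike-ins changed sign near 0 with the replicate block, for MT-ND2 (-0.06, and -0.00 with ERCC alone) and MT-RNR2 (0.03, and 0.01 with ERCC alone) with KI-CDK9d-32 at 4 h in MOLT4 and PSN1, MT-ND6 with KB-0742 at 2 h in MOLT4 (-0.02, and -0.02 with a median ratio) and MT-ATP8 with KB-0742 at 8 h in PSN1 (-0.02), and with a median ratio for MT-ND6 with KI-CDK9d-32 at 4 h in RH4 (0.01).

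Without 1 library, counts ranged from 11 to 13 for KI-CDK9d-32 in MOLT4 at 2 h, 5 to 7 and 0 to 6 for the compounds there at 2 and 4 h, 0 to 7 and 0 to 1 for the changes with KI-CDK9d-32 and KB-0742 from 2 to 4 h, 0 to 6 for KI-CDK9d-32 at 8 h by spike-ins, 7 to 13 and 8 to 12 for KI-CDK9d-32 in PSN1 at 4 and 8 h, 11 to 13 and 10 to 13 for KB-0742 there, 0 to 2 for KI-CDK9d-32 in RH4 at 4 h, 11 to 12 for the compounds in RH4 at 8 h, 6 to 10 for the KB-0742 change there and 0 to 1 for KB-0742 at 8 h by spike-ins. For differences between lines, no filter, the replicate block and leaving out libraries were not run.

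None of the following values by spike-ins was called, and each fell on either side of 0 depending on which library was left out. In MOLT4 with KI-CDK9d-32 they ranged at 2 h from -0.24 to 0.11 (MT-CO1), -0.15 to 0.27 (MT-RNR1) and -0.14 to 0.17 (MT-RNR2), at 4 h from -0.41 to 0.06 (MT-CO2), -0.22 to 0.30 (MT-ND2), -0.44 to 0.08 (MT-ND6), -0.38 to 0.12 (MT-RNR1) and -0.38 to 0.11 (MT-RNR2), and at 8 h from -0.35 to 0.08 (MT-ATP8). With KB-0742 there they ranged at 2 h from -0.21 to 0.05 (MT-ND4), -0.12 to 0.11 (MT-ND6), -0.08 to 0.22 (MT-RNR1) and -0.08 to 0.19 (MT-RNR2), at 4 h from -0.32 to 0.15 (MT-ATP8) and at 8 h from -0.02 to 0.20 (MT-RNR1). In PSN1 the degrader gave ranges of -0.17 to 0.07 (MT-ND4), -0.10 to 0.48 (MT-ATP8), -0.02 to 0.17 (MT-ND6), -0.18 to 0.10 (MT-RNR1) and -0.26 to 0.06 (MT-RNR2) at 2 h, and -0.34 to 0.06 (MT-ATP6), -0.07 to 0.13 (MT-ND6), -0.11 to 0.22 (MT-RNR1) and -0.22 to 0.15 (MT-RNR2) at 4 h. With KB-0742 they were -0.34 to 0.26 (MT-ATP8), -0.10 to 0.24 (MT-RNR1) and -0.29 to 0.07 (MT-RNR2) at 4 h, and -0.10 to 0.26 (MT-ATP8) and -0.19 to 0.06 (MT-RNR1) at 8 h. In RH4 the degrader gave -0.17 to 0.16 (MT-ND6), -0.18 to 0.17 (MT-RNR1) and -0.31 to 0.09 (MT-RNR2) at 4 h and -0.23 to 0.12 (MT-ND2) and -0.22 to 0.04 (MT-RNR1) at 8 h, and with KB-0742 at 8 h -0.30 to 0.01 (MT-RNR1).

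For the machinery list, spike-in scaling called, in MOLT4, 0 genes at 2 h and 36 at 8 h with KI-CDK9d-32 and 17 at 8 h with KB-0742, in PSN1 at 4 and 8 h 7 and 31 with KI-CDK9d-32 and 19 and 21 with KB-0742, and 0 and 25, and 29 and 30, in RH4. Total gene counts called 10 and 32, and 22, in MOLT4, 7 and 18, and 15 and 20, in PSN1, and 4 and 14, and 23 and 30, in RH4. For the 72 nuclear subunits in MOLT4, spike-in scaling called 0, 2 and 72 with KI-CDK9d-32 and 1, 7 and 36 with KB-0742 at 2, 4 and 8 h. At 4 and 8 h it called 0 and 19, and 4 and 32, in PSN1, and 0 and 28, and 15 and 64, in RH4. Of all genes it called, in the same order, 1.83, 37.6 and 91.8%, and 19.7, 51.0 and 54.9%, in MOLT4. In PSN1 the shares of all genes were 13.2 and 52.3%, and 42.8 and 48.0%. In RH4 they were 0.871 and 52.3%, and 62.4 and 78.9%. Total gene counts called 3, 21 and 46, and 16, 31 and 52, in MOLT4, 0 and 6, and 3 and 14, in PSN1, and 1 and 23, and 16 and 42, in RH4. The share of all genes called by total gene counts is not given beside either list. By total gene counts the subunits in MOLT4 had more genes higher than lower at 2 and 4 h (3 and 0, then 15 and 6, with KI-CDK9d-32, and 12 and 4, then 21 and 10, with KB-0742), and more lower than higher at 8 h in all lines. The cause was not tested. The counts of most tRNAs were too low to test, and spike-in values varied more between libraries, with biological coefficients of variation of 0.483 in MOLT4, 0.379 in PSN1 and 0.344 in RH4, against relative ones of 0.210, 0.252 and 0.217.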
